A study of Homo sapiens with 13 samples.

Results

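The genes described here are the translation factors of the EIF1 to EIF6 and EEF1 and EEF2 families, the release factor ETF1 and the aminoacyl-tRNA synthetases other than AARS1 and GARS1. They were picked by a rule on gene symbols, with the EIF2AK kinases left out, and the rule was set with earlier results of these data known. The annotation named 34 such genes on the array, carried by 72 features, and none of them was ETF1. Of these, 31 genes (62 features) had a value on at least 7 of the 13 arrays, out of 3841 named genes that met the same minimum among 4604 named on the array. By role they were 16 initiation factors, 4 elongation genes, 9 charging enzymes and 2 regulators, EIF4EBP1 and EEF2K. EIF3M (4 arrays), EIF4E2 (6 arrays) and FARS2 (5 arrays) fell below the minimum and were not analysed further. EEF2KMT carries the elongation factor's name but encodes a methyltransferase that modifies EEF2, and it was kept with the elongation genes by its symbol.

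Protein synthesis begins when the initiation factor EIF2, loaded with initiator tRNA, joins the small ribosomal subunit and EIF3, and when the EIF4 factors bring in the capped end of an mRNA. EIF4E binds the cap, EIF4G proteins are the scaffold, and EIF4EBP1 holds EIF4E inactive until mTOR signalling releases it. EIF2B recharges EIF2 with GTP, EIF5 triggers GTP hydrolysis at the start codon, and EIF6 keeps the large subunit from joining too early. During elongation EEF1A1 delivers charged tRNAs, EEF1B2 and EEF1D belong to its exchange factor, and EEF2K inhibits EEF2, the translocase. Each aminoacyl-tRNA synthetase couples an amino acid to its tRNA, in the cytosol or, for the enzymes whose symbols end in 2, in mitochondria. Plasma cells and myeloma cells secrete large amounts of immunoglobulin and depend on this machinery.

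The study asked how gene expression in myeloma, a cancer of plasma cells, moves after IRF4, a transcription factor of the plasma cell lineage, is knocked down. Lymphochip spotted cDNA arrays were hybridised with Cy5-labelled RNA from a culture carrying a doxycycline-inducible hairpin against IRF4 and Cy3-labelled RNA from a culture of the same line carrying a control hairpin, shluc, against luciferase. KMS12 was followed in 3 series, labelled 1332, 1332b and 2046. Each had an uninduced array (day 0, no doxycycline), an early array (day 3 in series 1332, day 2 in the others) and a later one (day 5 in series 1332, day 4 in the others) under 20 ng/ml doxycycline, and series 1332 went on to day 7. H929 (2 arrays, repeats 1 and 2) and SKMM1 (1 array) were measured at day 4 with hairpin 2046. All cultures in these groups, the controls included, were infected myeloma lines. Series 1332b and 2046 share their days and differ in hairpin label, while series 1332 differs from both in day. Each value below is a log2 ratio of the IRF4 hairpin culture over its control culture, after each array was centred on its median, so a value below 0 means less mRNA in the hairpin culture relative to the median gene. A ratio holds no level, so no gene is compared with another in abundance. The uninduced, days 2-3 and days 4-5 groups of KMS12 each hold 1 array per series. Their spread, on which the p-values rest together with that of the H929 repeats, therefore takes in series, hairpin label and, through series 1332, day. The labels do not say whether series 1332 and 1332b, or the H929 repeats, were separate cultures, so spread between those arrays may be partly technical. Precision is limited by the small number of arrays. A lower ratio in bulk RNA cannot tell fewer cells with the transcript from less of it in each cell.

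IRF4 checked the labels. It stood at 124.9%, 109.9% and 128% of the control culture on the uninduced arrays of series 1332, 1332b and 2046, at 42.5%, 28.2% and 54% at days 2-3, and at 62.2%, 55.5% and 60.3% at days 4-5. The day 7 array gave 59.9%, the H929 repeats 28% and 24.5%, and SKMM1 23.5%. IRF4 was thus below its control on all 10 induced arrays, less so in KMS12 at days 4-5 than at days 2-3. Between 7140 and 14228 features carried a value on an array. Of the marker lists, 8 of 8 plasma cell, 6 of 7 B cell, 7 of 8 T cell, 4 of 7 myeloid and 5 of 7 erythroid or stromal genes were measured, and since ratios hold no level they cannot show which lineages were present. At days 2-3 against uninduced their median log2 differences were -0.49 for plasma cell markers, 0.44 for B cell, 0.32 for T cell, -0.46 for myeloid and 0.54 for erythroid and stromal markers, and the part of these shifts in the values below was not tested.

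At days 2-3 of induction, most charging enzymes and many initiation factors had lower ratios than before induction, whereas the elongation genes did not share a direction. The median log2 difference from the uninduced arrays was -0.89 over 9 charging enzymes (8 below 0) and -0.57 over 16 initiation factors (12 below 0), against 0.02 over all 5980 genes tested and -0.09 over the 2598 genes with a value on every array. Over all members 22 of 31 (71%) lay below 0, with a background of 48.7%, and 1470 of the 2598 genes with a value on every array did. For the 4 elongation genes the median was -0.16 (2 below 0), and it turned to 0.01 when arrays were centred within classes of measurement frequency and to 0.12 without the uninduced array of series 2046. No gene passed the threshold of 0.05 after Benjamini-Hochberg adjustment in limma, members included (0% of 5980), so what follows on single members is description. In all, 12 of 31 members were lower at an unadjusted p under 0.05, which is 38.7%, where the background over all genes tested was 14.8%. None was higher, where the background was 6.56%.

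**Figure D1:**
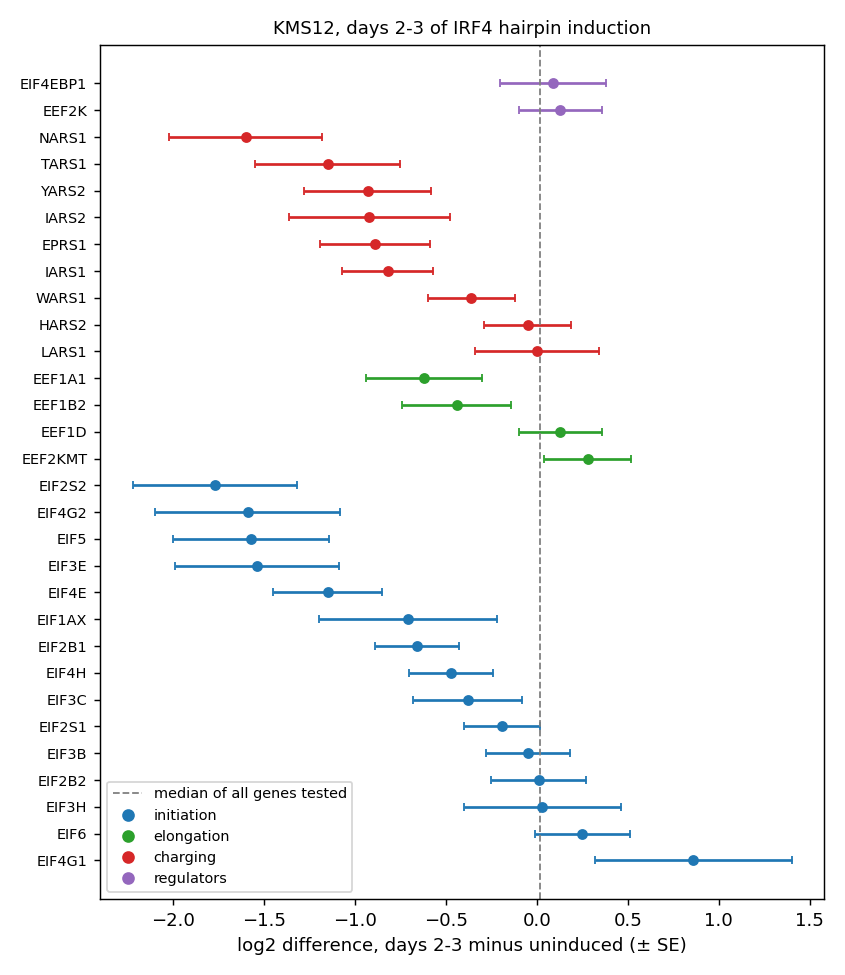
Log2 difference between the 3 KMS12 arrays at days 2-3 and the 3 uninduced arrays (horizontal axis, log2 units) for 30 of the 31 members (EIF1AY is not drawn), grouped by role, with bars of 1 standard error of the limma fit and a dashed line at the median of all genes tested. NARS1 (-1.60) leads the charging enzymes and EIF2S2 (-1.77) the initiation factors, while the elongation genes lie between -0.62 and 0.28.

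Among initiation factors, the lowest member was EIF2S2, the beta subunit of EIF2. In series 1332, 1332b and 2046 it stood at 0.37, -0.03 and 1.05 before induction, at -1.41, -2.05 and -0.46 at days 2-3, and at -0.62, 0.21 and -0.30 at days 4-5, with -0.23 at day 7. In percent of control, the days 2-3 values correspond to 37.5%, 24.1% and 72.7%. All 3 arrays at days 2-3 lay below all 3 uninduced arrays, and the days 4-5 arrays overlapped both groups. Series 2046 was nearest to its control at days 2-3 and had the highest uninduced value. The difference at days 2-3 was -1.77 (SE 0.45, 3.42-fold lower, limma adjusted p = 0.106), and its 3 features all lay below 0, from -2.06 to -1.60. The alpha subunit of the same complex, EIF2S1, differed by -0.19 (SE 0.21) and its features did not share a sign.

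EIF3E, a subunit of the EIF3 complex, gave 0.21, -0.04 and 1.29 before induction, -1.65, -1.36 and -0.16 at days 2-3, -0.50, 0.19 and -0.54 at days 4-5 and -0.41 at day 7, in the same order of series. The days 2-3 arrays lay below all uninduced ones, although the series 2046 array came close, and those at days 4-5 again overlapped with both groups. At days 2-3 it differed by -1.54 (SE 0.45, limma adjusted p = 0.110), and both features lay below 0. Other EIF3 subunits did not share this difference: EIF3B stood at -0.05 (SE 0.23), EIF3C at -0.38 (SE 0.30) and EIF3H at 0.03 (SE 0.43). EIF3H was measured on 8 arrays, and the sign of its difference turned with several processing choices.

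EIF4E, the cap-binding protein, stood at 0.38, -0.15 and 0.55 before induction, -1.02, -1.20 and -0.43 at days 2-3, 0.31, -0.21 and -0.32 at days 4-5 and 0.31 at day 7. Its arrays at days 2-3 lay below every uninduced array and also below every array at days 4-5. The difference from uninduced was -1.15 (SE 0.30, 2.21-fold lower, limma adjusted p = 0.107), with all 3 features below 0, from -1.52 to -0.77. Of the scaffold proteins, EIF4G2, which serves cap-independent initiation, gave 0.57, -0.09 and 1.25 before induction, -0.80, -2.16 and -0.09 at days 2-3, 0.10, -0.54 and -0.04 at days 4-5 and 0.41 at day 7. The series 2046 array at day 2 and the 1332b uninduced array both stood at -0.09, so these groups met without separating. Within every series EIF4G2 was lower at days 2-3 than before induction, and the difference was -1.59 (SE 0.51, limma adjusted p = 0.127). EIF4G1, the main scaffold, ran the other way at 0.86 (SE 0.54, limma adjusted p = 0.394), and only 2 uninduced arrays measured it.

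EIF5 stood at 1.02, -0.04 and 1.08 before induction and at -0.48, -1.84 and -0.34 at days 2-3. At days 4-5 it had no value in series 1332, stood at -0.46 in 1332b and -0.26 in 2046, and stood above the control at 1.52 on the day 7 array of series 1332. Every array at days 2-3 lay below every uninduced array, and the day 7 array was the highest of all. Its days 2-3 difference was -1.57 (SE 0.43, 2.98-fold lower, limma adjusted p = 0.107). Of the EIF2B subunits, which recharge EIF2, EIF2B1 differed by -0.66 (SE 0.23, limma adjusted p = 0.146, all 3 features below 0) with no overlap between the groups, and EIF2B2 by 0.01 (SE 0.26). EIF4H, an RNA helicase cofactor, stood at -0.47 (SE 0.23), with its features at -0.93 and 0.42. EIF6 stood at 0.25 (SE 0.26). EIF1AX and EIF1AY, near-identical copies whose cDNA probes may not tell them apart, were measured on 10 and 9 arrays, and stood at -0.71 (SE 0.49) and -1.11 (SE 0.47). EIF1AY, with 2 values at days 2-3, was among the lower members at an unadjusted p under 0.05.

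Upstream sequence of RefSeq on GRCh38.p14 was given for 24 of the 31 members, not for EEF1D, EEF2KMT, EIF2S2, EIF3E, EIF3H, EIF4EBP1 or LARS1. In the 250 bases before each start site, 3 motifs were looked up on both strands: the E-box CACGTG of MYC and its relatives, which reads the same on both strands, the element TGATGNAA read by ATF4 with C/EBP partners, and the IRF repeat, GAAA and GAAA with any 2 bases between, read by IRF proteins. An E-box was found in 5 of 24 members (20.8%: EEF2K, EIF4E, EIF4G1, EIF4H and IARS1), against 11.9% of 3167 measured genes. EIF4E, the early member with the most such matches, is shown because it holds an E-box 225 and 72 bases before its start, printed in capitals and read along the gene.
EIF4E, distal, chr4:98929313-98929383, minus strand: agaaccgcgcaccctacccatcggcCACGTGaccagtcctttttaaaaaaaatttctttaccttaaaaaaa
EIF4E, proximal, chr4:98929160-98929245, minus strand: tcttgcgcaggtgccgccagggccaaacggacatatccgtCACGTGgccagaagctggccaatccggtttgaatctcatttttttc
A match describes these letters and shows neither binding nor regulation. EIF4G1, which ran opposite to EIF4E at days 2-3, also held 2 E-boxes in its window.

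Among charging enzymes, NARS1, which charges the tRNA for asparagine, was the lowest. It gave 0.52, -0.09 and 1.00 before induction, -1.43, -1.66 and -0.28 at days 2-3, -0.64, -0.07 and -0.11 at days 4-5 and -0.61 at day 7. In percent of control, the days 2-3 arrays read 37%, 31.7% and 82.4%, all below every uninduced array. Series 2046 was again nearest to the control, and again had the highest uninduced value. The difference was -1.60 (SE 0.42, 3.03-fold lower, limma adjusted p = 0.107), from a single feature.

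TARS1, the threonine enzyme, gave 0.59, -0.58 and 0.70 before induction, -0.68, -1.64 and -0.42 at days 2-3 and -0.69, -0.43 and -0.50 at days 4-5, and was not measured at day 7. The low uninduced array of series 1332b overlapped with both later groups, while all 6 induced arrays lay below 0. Within every series TARS1 was lower at days 2-3 than before induction. Its mean difference at days 2-3 was -1.15 (SE 0.40, limma adjusted p = 0.145). EPRS1, the enzyme for glutamate and proline, gave 0.45, -0.11 and 0.22 before induction, -0.57, -1.38 and -0.16 at days 2-3 and 0.09, -0.06 and -0.18 at days 4-5. Its arrays at days 2-3 lay below all uninduced ones by a margin that was small in series 2046, for a difference of -0.89 (SE 0.30, limma adjusted p = 0.140), and its features stood at -1.33 and -0.45.

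IARS1, the isoleucine enzyme, was read by 6 features. It gave 0.18, -0.06 and 0.40 before induction, -0.59, -0.95 and -0.40 at days 2-3, 0.37, -0.28 and -0.05 at days 4-5 and -0.31 at day 7. It had the smallest spread among the members with the 6 lowest p-values, and its days 2-3 arrays lay below both the uninduced and the days 4-5 arrays. The difference at days 2-3 was -0.82 (SE 0.25, 1.76-fold lower, limma adjusted p = 0.114), and all 6 features lay below 0, from -1.01 to -0.43. The TGATGNAA element was found in 2 of 24 members (8.33%: IARS1 and YARS2), against 3% of the measured genes. IARS1 is shown because it is the member that holds both this element and an E-box. The capitals mark the E-box 186 bases before the start and the element 13 bases before it, which reads on the strand opposite to the gene.
IARS1, CACGTG, chr9:92293838-92293923, minus strand: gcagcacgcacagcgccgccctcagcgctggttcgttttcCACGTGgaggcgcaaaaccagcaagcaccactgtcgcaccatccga
IARS1, TGATGNAA element, chr9:92293698-92293750, minus strand: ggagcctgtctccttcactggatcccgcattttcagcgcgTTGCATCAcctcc

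The mitochondrial charging enzymes were not set apart from the cytosolic ones at days 2-3: YARS2 for tyrosine stood at -0.93 (SE 0.35), IARS2 for isoleucine at -0.92 (SE 0.44) and HARS2 for histidine at -0.05 (SE 0.24), with medians of -0.92 over these 3 and -0.85 over the 6 cytosolic enzymes. LARS1, the leucine enzyme, stood at 0.00 (SE 0.34) with its features on opposite sides of 0, and 9 arrays measured it. WARS1, the tryptophan enzyme, stood at -0.36 (SE 0.24) with all 4 features below 0.

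Of the elongation genes, EEF1A1 stood at -0.62 (SE 0.32, limma adjusted p = 0.284) with all 9 features below 0. The arrays gave 0.65, 0.04 and 0.94 before induction (mean 0.54) and 0.02, -0.62 and 0.38 at days 2-3 (mean -0.07). The groups overlapped, and most of the difference came from uninduced arrays above 0. In each of the 3 series, though, the days 2-3 array lay below the uninduced array of that series. EEF1A1 has many processed pseudogenes, so its probes may read near-identical copies. EEF1B2 differed by -0.44 (SE 0.30), with an uninduced value of 1.30 in series 2046 against 0.08 and 0.20 in the other series and 0.20, -0.10 and 0.14 at days 2-3. EEF1D stood at 0.13 (SE 0.23) and EEF2KMT at 0.28 (SE 0.24). The regulators EIF4EBP1 at 0.09 (SE 0.29) and EEF2K at 0.13 (SE 0.23) were both near 0.

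**Figure D2:**
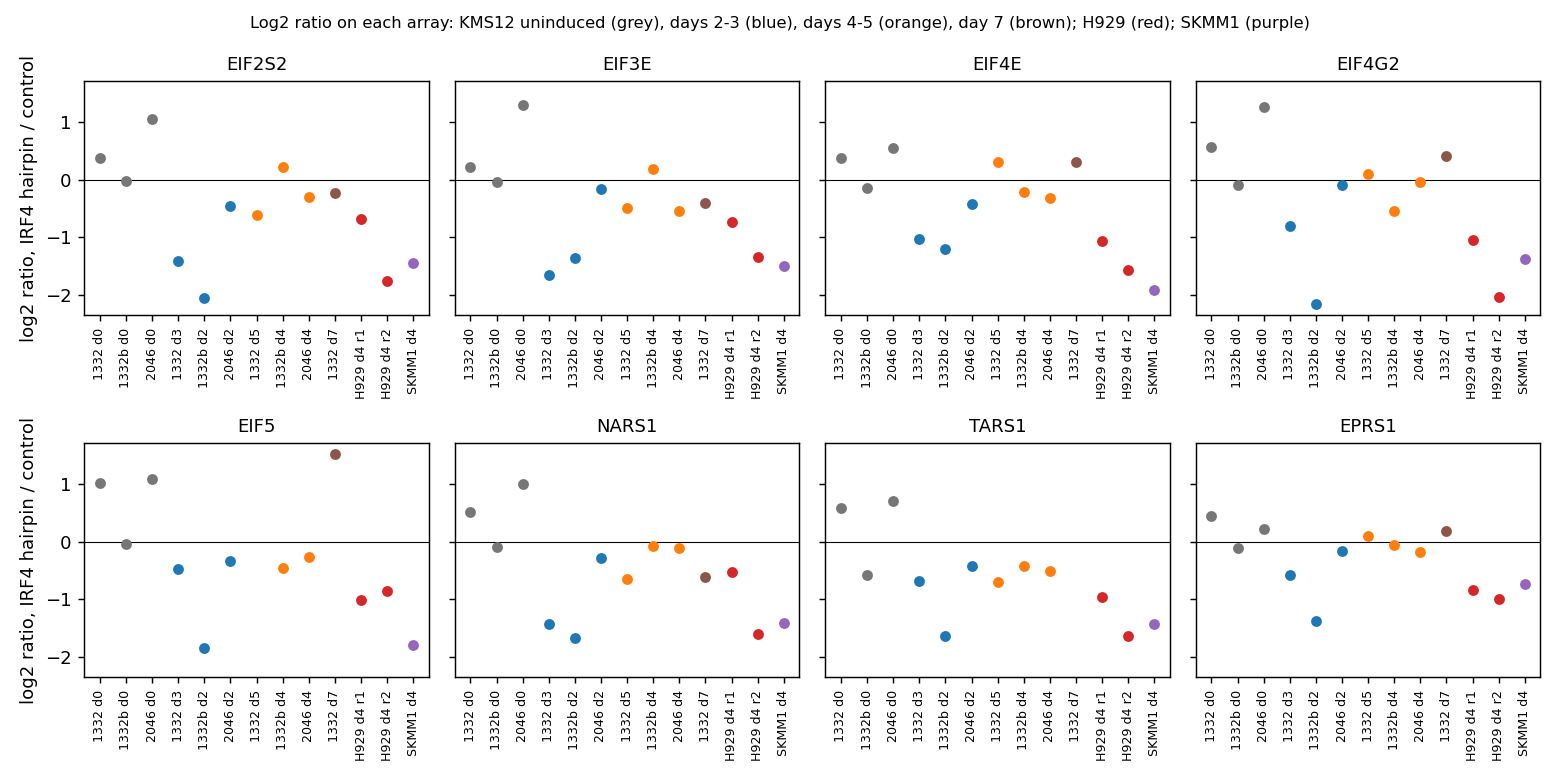
Log2 ratio of IRF4 hairpin over control culture (vertical axis) on each of the 13 arrays (horizontal axis, by series and day, r for repeat) for 5 initiation factors and 3 charging enzymes, 1 point per array and no point where the array gave no value. Series 1332 and 1332b at days 2-3 and the H929 and SKMM1 arrays lie low for EIF2S2 and EIF4E, while the series 2046 array at day 2 lies nearer to 0.

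Across the members with values on all 6 arrays, 9 of 23 (39.1%) had every array at days 2-3 below every uninduced array, where the background was 21.9%: EIF2B1, EIF2S2, EIF3E, EIF4E, EIF5, EPRS1, IARS1, NARS1 and WARS1. None lay wholly above (background 8.81%). Members were measured on more arrays than most genes, 19 of 31 on all 13, and among genes with values on all 13 arrays 8 of 19 members (42.1%) were lower at an unadjusted p under 0.05, beside a background of 20.9%. Relative to their control cultures, the days 2-3 arrays lay at different depths. The median over members was -0.37 in series 1332, -0.55 in 1332b and -0.14 in 2046 at days 2-3, and 0.21, -0.10 and 0.54 on their uninduced arrays. Every series thus stood lower at days 2-3 than before induction, and series 2046, nearest to 0 at days 2-3, had started highest. On the uninduced array of series 2046, 22 of 27 members lay above 0, and genes measured on all 13 arrays had a median of 0.24 while those measured on 7 to 9 arrays had -0.42, a shift whose part in the members' values was not tested.

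The counts depended on single arrays. Without the series 2046 array at day 2, 9 of 29 members passed the adjusted threshold as lower (EIF2S2, EIF3E, EIF4E, EIF4G2, EIF5, EPRS1, IARS1, NARS1 and YARS2), where 11.5% of 4518 genes did so and 12.3% passed in either direction. Without the series 1332b array at day 2, 7 of 29 members were lower at an unadjusted p under 0.05 (background 11.2%), and without the uninduced array of series 2046 7 of 28 (background 10.8%). EIF2S2, EIF3E, EIF4E, EIF5, IARS1 and NARS1 were among the lower members in each of these sets. When the days 2-3 arrays were tested against 0 instead of the uninduced arrays, 5 of 31 passed (EIF1AY, EIF2S2, EIF4E, IARS1 and NARS1; background 8.32%), and with features measured on all 13 arrays 3 of 18 passed (EIF2S2, EIF4E and NARS1; background 7.53%).

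At days 4-5 most of these medians stood closer to their uninduced ratios. The median difference from uninduced was -0.28 over the initiation factors, -0.16 over the charging enzymes and -0.30 over the elongation genes, beside 0.03 over 6521 genes tested. The charging median was -0.43 over the 6 cytosolic enzymes (5 below 0) and 0.04 over the 3 mitochondrial ones (1 below 0). Of the members, 23 of 31 (74.2%) lay below 0, with a background of 47.1%. Among the 2598 genes with a value on all 13 arrays, 1743 lay below 0, a larger share than over all genes tested, and the median was -0.12. At an unadjusted p under 0.05, 1 of 31 members (3.23%) was lower, with a background of 1.82%. With the culture series as a replicate block, which pairs each later array with its own uninduced array, 6 of 31 (19.4%) were lower at an unadjusted p under 0.05 (EIF4G2, EIF5, IARS2, NARS1, TARS1 and WARS1), with a background of 3.11%. No gene passed the adjusted threshold in limma. Relative to days 2-3, the median over charging enzymes was 0.65 and over initiation factors 0.43, beside 0.02 over all genes tested, and it was -0.15 over the elongation genes. The days 4-5 values were higher at an unadjusted p under 0.05 for EIF1AY (1.56, SE 0.47), EIF2S2 (1.07, SE 0.45), EIF4E (0.81, SE 0.30), IARS1 (0.67, SE 0.25) and YARS2 (0.97, SE 0.40), 5 of 31 members (16.1%) with a background of 9.12%. EIF4E and IARS1 had every array at days 4-5 above every array at days 2-3, 2 of 25 members (8%), where the background was 12.1%. These comparisons share the days 2-3 or the uninduced arrays, so their values are not independent of each other.

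**Figure D3:**
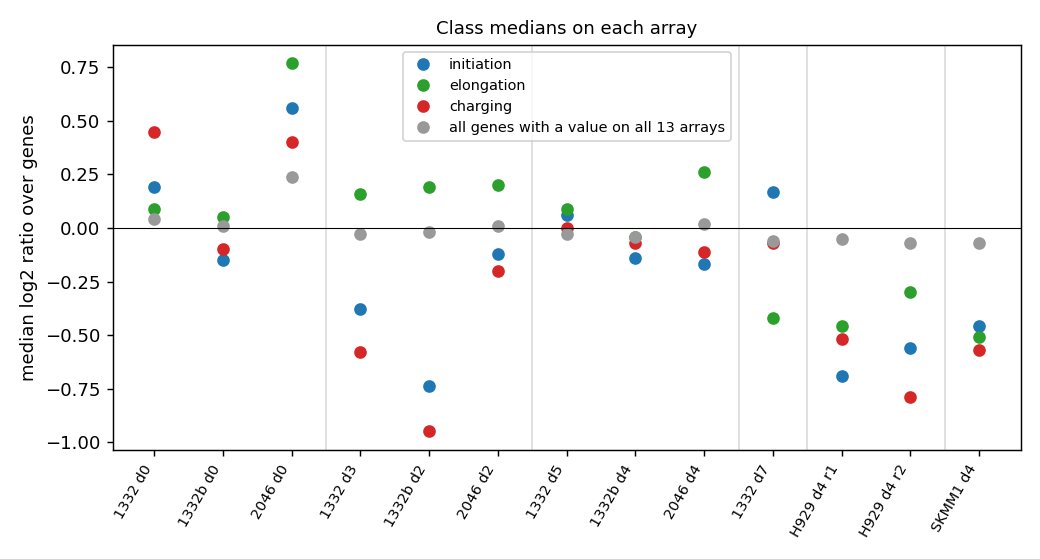
Median log2 ratio over the members of each role (vertical axis) on each array (horizontal axis, by series and day), beside the median over genes with a value on all 13 arrays in grey. The charging median is -0.58 and -0.95 in series 1332 and 1332b at days 2-3 and between -0.11 and 0.00 on the 3 arrays at days 4-5, while in H929 and SKMM1 the elongation median is also below 0.

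WARS1 and EIF4EBP1 ran on another course. WARS1 gave 0.14, 0.02 and 0.45 before induction, 0.00, -0.28 and -0.20 at days 2-3, -0.65, -0.55 and -0.05 at days 4-5 and -1.41 at day 7 of series 1332, which corresponds to 37.7% of control. Its arrays at days 4-5 lay below all uninduced arrays, and series 1332 went lower at each later day. The difference at days 4-5 was -0.62 (SE 0.24, 1.54-fold lower, limma adjusted p = 0.804), with all 4 features below 0. It was the 1 of 21 members (4.76%) whose arrays lay wholly below uninduced ones, with a background of 7.15%. The count of members lower at an unadjusted p under 0.05, 1 of 31 with all arrays, was 0 without the series 1332b array at day 4 (background 1.71%) or without the uninduced array of series 2046 (background 1.1%). It was 2 (WARS1 and EIF4EBP1) without the series 2046 array at day 4 (background 1.96%) or the uninduced array of series 1332 (background 1.59%). Without the uninduced array of series 1332b it was 5 of 25 (EIF4H, EIF5, NARS1, TARS1 and WARS1; background 3.71%).

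EIF4EBP1, the inhibitor of EIF4E, gave -0.16, 0.16 and 0.54 before induction, 0.35, 0.44 and 0.01 at days 2-3, -0.91, -0.42 and 0.11 at days 4-5 and -1.90 at day 7, which is 26.8% of control. The decline within series 1332 from day 3 to day 7 rests on 1 array a day, and series 2046 did not take part. At days 4-5 it differed by -0.59 from uninduced (SE 0.29, limma adjusted p = 0.804) and -0.67 from days 2-3 (SE 0.29, limma adjusted p = 0.342). Besides EIF4EBP1, EIF4G1 was the other member lower at days 4-5 than at days 2-3 at an unadjusted p under 0.05 (-1.61, SE 0.49), 2 of 31 in all (6.45%, background 4.55%). EIF4G1 stood at -1.45 and -2.10 on the day 4 arrays of series 1332b and 2046 and at -0.02 on the day 5 array of series 1332.

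The IRF repeat was found in 3 of 24 members (12.5%: EIF3C, EIF6 and WARS1), against 5.08% of the measured genes. WARS1 is shown because it is the member whose arrays at days 4-5 separate from the uninduced ones, and the capitals mark the repeat 55 bases before its start.
WARS1, chr14:100375353-100375442, minus strand: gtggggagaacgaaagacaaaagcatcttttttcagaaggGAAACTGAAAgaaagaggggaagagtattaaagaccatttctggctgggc
EIF3C and EIF6, which hold the repeat too, stood at -0.03 (SE 0.30) and 0.25 (SE 0.26) at days 4-5.

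**Figure D4:**
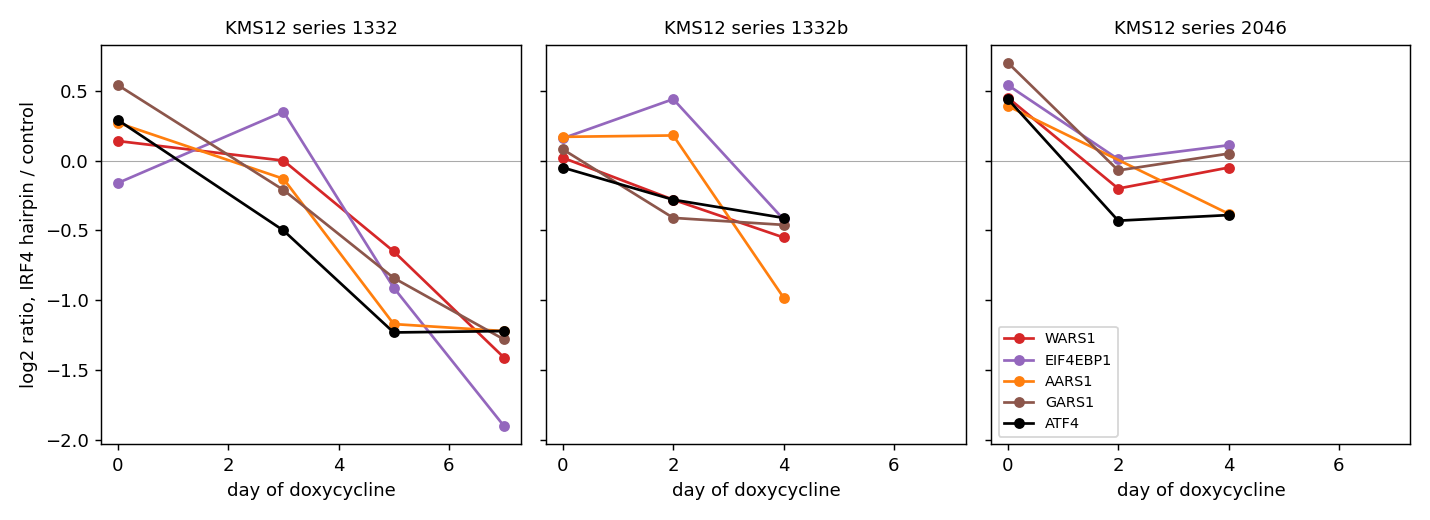
Log2 ratio (vertical axis) by day of doxycycline (horizontal axis) in each KMS12 series for WARS1 and EIF4EBP1, beside ATF4, AARS1 and GARS1, 1 array per point. In series 1332 all of them lie between -1.90 and -1.22 at day 7, whereas in series 2046 they lie between -0.39 and 0.11 at day 4.

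Most other members also lay below 0 at days 4-5. EIF5 was the lowest initiation factor at -1.05 (SE 0.48, limma adjusted p = 0.804), on 2 arrays at days 4-5, and EIF3H the highest at 0.50 (SE 0.47). Among the charging members TARS1 was the lowest at -0.78 (SE 0.40, limma adjusted p = 0.804) and LARS1 the highest at 0.49 (SE 0.34). AARS1 (-1.12) and GARS1 (-0.86), which are not members, lay lower than TARS1. NARS1 stood at -0.75 (SE 0.42) and EIF3E at -0.77 (SE 0.45). All 4 elongation genes lay below 0, from EEF1B2 at -0.38 (SE 0.30) to EEF2KMT at -0.14 (SE 0.24), whose sign turned to 0.05 when arrays were centred within classes of measurement frequency.

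Hairpin 2046 was used at day 4 in all 3 lines, and the mean ratio over the lines, with the H929 repeats averaged, was tested against 0. No gene passed the adjusted threshold (limma, 5134 genes tested), and a gene-specific dye effect stays in such a mean. So does any difference between hairpin and control culture that was there before induction. The median over members was -0.31, with -0.32 for initiation, -0.30 for elongation and -0.38 for charging, beside -0.01 over all genes tested. Lower at an unadjusted p under 0.05 were 9 of 28 members (32.1%), with a background of 9.19%, and none was higher (background 5.94%). Below 0 in all 3 lines were 13 of 28 members (46.4%, background 19.8%), and above 0 in all 3 were EEF1D and HARS2 (7.14%, background 21.3%).

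Several members lay nearer to 0 in KMS12 than in the other lines. H929 and SKMM1 had no uninduced array, so their ratios before induction are not known. On the uninduced array of KMS12 series 2046, the members given next ran from 0.22 (EPRS1) to 1.29 (EIF3E). The part of such starting ratios in the day 4 values was not tested. EIF4E stood at -0.32 in KMS12, at -1.06 and -1.56 in H929 and at -1.91 in SKMM1, for a mean of -1.18 (SE 0.31, limma adjusted p = 0.278). EIF2S2 stood at -0.30, -0.69, -1.75 and -1.44 in the same order, EIF3E at -0.54, -0.74, -1.34 and -1.50, and EIF4G2 at -0.04, -1.05, -2.03 and -1.37. For each of these the KMS12 array was the highest and H929 repeat 1 the next. EIF5 stood at -0.26, -1.01, -0.85 and -1.79, NARS1 at -0.11, -0.52, -1.59 and -1.40, and EPRS1 at -0.18, -0.83, -1.0 and -0.73. TARS1 was the member with the smallest p, at -0.50, -0.96, -1.63 and -1.43 and a mean of -1.07 (SE 0.23, 2.11-fold lower, limma adjusted p = 0.278). IRF4 was likewise nearest to 0 in KMS12, at -0.73 in KMS12, -1.84 and -2.03 in H929 and -2.09 in SKMM1.

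The mean differences of the days 2-3 comparison in KMS12 and of the 3-line comparison share no array. Their p-values do, because the spread fitted for days 2-3 was pooled over all groups. That spread takes in the KMS12 and H929 arrays of the 3-line comparison, so the lists of lower genes counted next are not independent. Of the 28 members tested in both, 8 were lower at an unadjusted p under 0.05 in both (EIF2S2, EIF3E, EIF4E, EIF4G2, EIF5, EPRS1, NARS1 and TARS1), which is 72.7% of the 11 lower at days 2-3 and 88.9% of the 9 lower over the lines. Over all genes tested in both, the shared 295 were 40.5% and 64.8% of the corresponding sets, and among genes with a value on all 13 arrays the shares were 41.9% and 72.6%. Both comparisons are of the same hairpin design against the same kind of control, and the shared set therefore describes these genes across arrays without setting them apart from others.

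**Figure D5:**
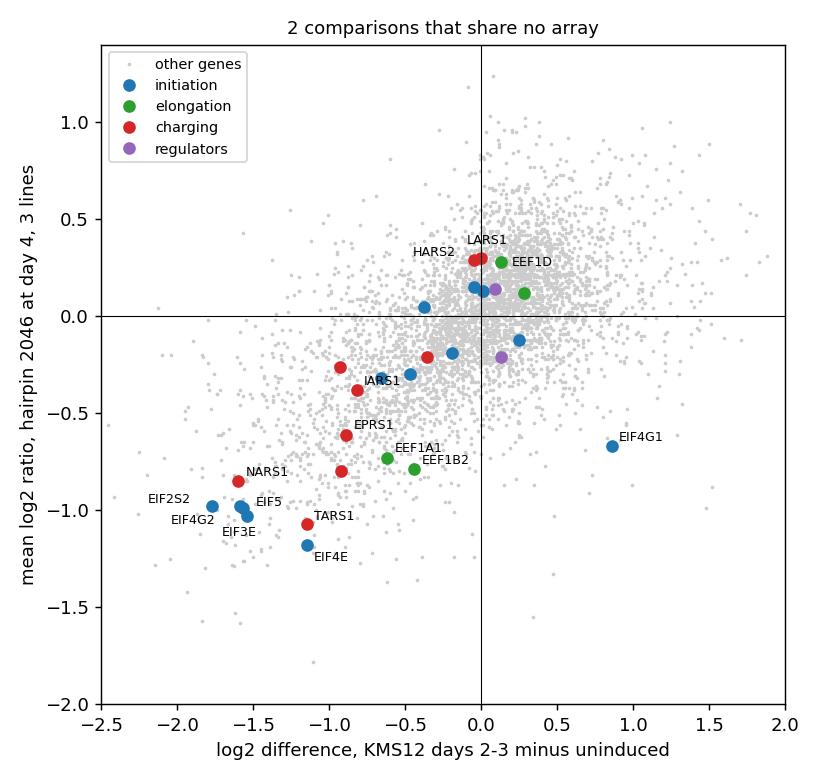
Each point is a gene, with its log2 difference at KMS12 days 2-3 against uninduced on the horizontal axis and its mean log2 ratio over 3 lines at day 4 of hairpin 2046 on the vertical axis, members coloured by role and other genes in grey. EIF2S2, EIF3E, EIF4E, EIF4G2, EIF5, NARS1 and TARS1 lie below -0.8 on both axes, HARS2, LARS1 and EEF1D near 0 or above, and EIF4G1 lies on opposite sides.

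EEF1A1 and EEF1B2 lay lower in H929 and SKMM1 than in KMS12. EEF1A1 stood at 0.11, 0.11 and 0.34 in KMS12 at days 4-5 and at -0.93 and -1.48 in H929 and -1.32 in SKMM1, so the H929 arrays lay below all KMS12 arrays. Its difference between H929 and KMS12 at days 4-5 was -1.39 (SE 0.35, 2.62-fold lower, limma adjusted p = 0.202), the smallest p of the members in that comparison. With features measured on all 13 arrays EEF1A1 passed the adjusted threshold, as 1 of 18 members (background 2.66%). EEF1B2 stood at 0.07, 0.15 and 0.21 in KMS12, at -0.97 and -0.85 in H929 and at -1.67 in SKMM1, with a difference of -1.05 (SE 0.33, limma adjusted p = 0.268). EEF1D, the other exchange factor subunit, stood at -0.10, -0.18 and 0.31 in KMS12 and at 0.23, 0.25 and 0.30 in the other lines, so these overlapped. EEF2K differed by -0.70 (SE 0.23, limma adjusted p = 0.281) and EEF2KMT by 0.38 (SE 0.26).

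Over all roles, 9 of 26 members (34.6%) were lower in H929 than in KMS12 at an unadjusted p under 0.05, with a background of 8.68%, and 12 of 22 (54.5%) lay wholly below, with a background of 25.5%. Besides EEF1A1, EEF1B2 and EEF2K, the 9 were EIF4E (-1.24, SE 0.33), EIF4G2 (-1.38, SE 0.57), EIF2B1 (-0.67, SE 0.26), EPRS1 (-0.87, SE 0.34), IARS2 (-1.23, SE 0.54) and IARS1 (-0.61, SE 0.28). EIF3B was the 1 member wholly above (0.39, SE 0.26), 4.55% against a background of 14.7%. Without H929 repeat 2 the count was 4 of 28 (EEF1A1, EEF1B2, EIF1AX and EIF4E, background 2.99%). That fit has 1 H929 array, which is assumed to vary like the other groups, and it admits members such as EIF1AX that have only this H929 value. Without the series 1332 array at day 5 it was 4 of 24 (EEF1A1, EEF1B2, EEF2K and EIF4E, background 7.89%). IRF4 itself was lower in H929 (-1.18, SE 0.28). Line, hairpin, depth of knockdown and the ratios before induction, not measured in H929, cannot be told apart in this comparison.

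Of 45 other translation genes listed, 19 were measured, and none passed the adjusted threshold in limma. At days 2-3, 7 of 18 were lower (background 14.8%) and 2 higher (background 6.56%) at an unadjusted p under 0.05. The lower ones were RPS6KB1, the S6 kinase (-1.18, SE 0.24), DENR, a reinitiation factor (-1.37, SE 0.39), PAIP2 (-1.05), AIMP1, a scaffold of the synthetase complex (-0.94), RHEB, the mTOR activator (-0.69), ATF4 (-0.63) and PPP1R15B, a subunit of the EIF2 phosphatase (-0.95). PABPC1, the poly(A)-binding protein (1.13), and PELO, a rescue factor for stalled ribosomes (0.83), were higher. At days 4-5 the 3 lower genes were AARS1 for alanine (-1.12, SE 0.26), GARS1 for glycine (-0.86, SE 0.30) and ATF4 (-0.90, SE 0.26), with a background of 1.82%, and none was higher. In series 1332 at days 0, 3, 5 and 7, ATF4 gave 0.29, -0.50, -1.23 and -1.22 and AARS1 0.27, -0.13, -1.17 and -1.22, on 1 array a day. Like WARS1 and EIF4EBP1 in that series, both stood lower at days 5 and 7 than at day 3. ATF4 already stood at -0.50 at day 3, where WARS1 gave 0 and EIF4EBP1 0.35. From day 5 to day 7 ATF4 and AARS1 changed little, while WARS1 and EIF4EBP1 went lower.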

How the data were processed

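The authors deposited 1 table of log2 ratios, Cy5 over Cy3, for 15246 features on 13 two-channel arrays. Their log base (taken as 2), normalization, background correction and rule for blank spots were not given in the sources used here. Per the labels, every IRF4 hairpin culture was in Cy5 and every control in Cy3, with no dye swap. The lowest correlation between arrays was -0.33, between SKMM1 and the uninduced array of series 2046, and the labelled direction was kept.

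Platform gene names were updated by gene identifier to RefSeq (GRCh38.p14): 10169 features had 1 symbol, 4 several and 5073 none. Features with values on at least 7 arrays were kept, each array was centred on its median, and features of a gene were averaged, which gave 6948 tested units, named or not. Log2 ratios were fitted in limma 3.58.1 under R 4.3.3 (two-sided moderated tests from lmFit and eBayes) with 6 group means, or with 1 value per line for hairpin 2046. A gene needed 2 values in each group compared, or 1 where leaving out an H929 repeat left 1 array. Deviations from the group means of arrays of 1 KMS12 series, over 3432 units, correlated at 0.14, 0.24 and 0.19 between uninduced and days 2-3 and at 0.25, 0.13 and 0.14 between uninduced and days 4-5. Series 1332, 1332b and 2046 were therefore taken to pair the arrays in these comparisons, and the blocked value is given where it moves a count. Between days 2-3 and days 4-5 they correlated at 0.36, -0.10 and -0.07 and were not taken as pairs. Benjamini-Hochberg adjustment ran over all units tested, with a threshold of 0.05. The code was tested on simulated data. Counts of 0 called genes are given beside counts at an unadjusted p under 0.05.

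Values on every array are given for the 6 members with the smallest p at days 2-3, at days 4-5 and over the 3 lines, and the lowest and highest member of each class at days 4-5 are named. Other members given array by array were chosen after their values were seen. The members, lists and rules were chosen with earlier results of these data known. Alternatives covered feature filters, centring, features per gene, samples fitted, a replicate block, a robust prior, testing against 0 and leaving out each array.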

Additional observations from a re-analysis of the deposited data

How the results depend on the processing

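The members followed through the alternatives were the initiation factors EIF2S2, EIF3E, EIF3H, EIF4E, EIF4G2 and EIF5, and the regulator EIF4EBP1. Also followed were the charging enzymes IARS1, LARS1, NARS1, TARS1 and WARS1, and the elongation genes EEF1B2 and EEF2KMT. The direction of the other members was not followed. At days 2-3, at days 4-5, in H929 and over the 3 lines, the followed members kept their direction, except as follows. With features on 10 or more arrays, the elongation median at days 2-3 was -0.05, 2 members were lower at days 4-5, and the charging medians were -0.32 at days 4-5 and 0.51 against days 2-3. The initiation median over the 3 lines was -0.57.

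With features on all 13 arrays, 3 members passed at days 2-3 (background 7.53%) and 1 in H929 (background 2.66%). Initiation medians were -1.06 at days 2-3, -0.46 at days 4-5, 0.67 for days 4-5 against days 2-3, -0.75 in H929 and -0.73 over the lines. Elongation medians were 0.01 and -0.11, and charging medians -0.37 at days 4-5 and 0.32 against days 2-3. No member was lower at days 4-5 (0), 1 was lower against days 2-3, and EEF2KMT turned to 0.05 at days 4-5.

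With no filter the elongation median at days 2-3 was -0.25, EIF4EBP1 stood at 0, EIF3H at -0.02 and LARS1 at -0.11, the charging median at days 4-5 was -0.24 and 1 member was lower against days 2-3. Without centring the same quantities were -0.26, -0.01, -0.04, -0.12, -0.23 and 1, and 2 members were lower at days 4-5. Centred within classes of measurement frequency, the elongation medians were 0.01 and -0.11, EIF3H stood at -0.31 and LARS1 at -0.26 at days 2-3, EEF2KMT at 0.05 at days 4-5 with 2 members lower, and LARS1 at -0.06 in H929.

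With the best covered feature per gene, the elongation median at days 2-3 was -0.20, LARS1 stood at -0.37, charging medians were -0.50 at days 4-5 and 0.76 against days 2-3, and the initiation median over the lines was -0.61. With the median over features, charging medians were -0.24, 0.48 and, in H929, -0.36. Against 0, 5 members passed at days 2-3 (background 8.32%). The elongation median in that test was 0.17, and EIF3H, EEF1B2 and LARS1 stood at -0.17, 0.08 and -0.33. At days 4-5 against 0, 2 members were lower, initiation, elongation and charging medians were -0.12, 0.08 and -0.02, and IARS1 and EEF1B2 stood at 0.02 and 0.15. With KMS12 arrays alone, 1 member was lower at days 4-5 against days 2-3.

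With the series as a replicate block, 6 of 31 members were lower at days 4-5 in place of 1 (19.4%, beside 3.11% of all genes tested). At days 2-3, 13 members were lower in place of 12 and EIF3H turned to -0.23. Charging medians were -0.24 at days 4-5 and 0.48 against days 2-3. The block brought no member past the adjusted threshold and turned no other member followed through the alternatives.

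Leaving out 1 array at a time, the days 2-3 comparison gave 0 to 9 members past the adjusted threshold and 7 to 15 lower. The 9 came without the series 2046 array at day 2, where the background was 12.3%. The 7 came without the series 1332b array at day 2 (background 11.2%) or the uninduced array of series 2046 (background 10.8%). Initiation medians ran from -1.06 to -0.38 and elongation medians from -0.29 to 0.12, with EIF3H from -0.23 to 0.45 and EIF4EBP1 from -0.08 to 0.26. The days 4-5 comparison gave 0 to 5 lower, with medians from -0.49 to -0.16 (initiation), -0.44 to -0.06 (elongation) and -0.49 to -0.11 (charging), and EEF1B2 from -0.60 to 0.01. Days 4-5 against days 2-3 gave 1 to 2 lower, medians from 0.19 to 0.56 (initiation) and 0.33 to 0.86 (charging), and EEF1B2 from -0.03 to 0.12. In H929, charging medians ran from -0.69 to -0.25, WARS1 from -0.37 to 0.13 and LARS1 from -0.02 to 0.20. There, leaving out an H929 repeat leaves 1 array that is assumed to vary like the other groups. Counts of members given under these alternatives without a background describe how the counts moved and are not read as results about the members. The causes of these shifts were not tested. The background over genes with a value on all 13 arrays was added after seeing the data.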
